A study of Mus musculus with 24 samples.

Results

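The fibrillar collagen genes were taken as the 10 rows of the count table, of 51138 in all, whose gene identifiers belong to Col1a1, Col1a2, Col3a1, Col5a1, Col5a2, Col5a3, Col11a1, Col11a2, Col24a1 and Col27a1. The genes were chosen by name, with earlier results of these data known. Col2a1, which encodes the fibrillar type II collagen, was not among them, and the sums below leave it out. Bulk RNA sequencing was performed on 24 constructs of biphasic calcium phosphate (BCP) granules, a ceramic bone substitute, collected 2 weeks after they were placed under the skin of the back. Each construct came from 1 animal, and there were 6 groups of 4. The hosts in every group, controls included, were Foxp3-DTR/eGFP mice aged 8 to 9 weeks. In this strain cells expressing Foxp3, the regulatory T cells (Treg), carry the diphtheria toxin receptor. Both sexes were used over the study as a whole. BCP had granules alone. BCP+MSC had granules seeded with bone marrow stromal cells (MSC) of C57BL/6J wild type mice. BCP+MSC+RvE1 had MSC that were exposed, once seeded on the granules, to resolvin E1 (RvE1), a lipid mediator, at 10 nM, and BCP+MSC+Treg had MSC cocultured with activated Treg from spleens of Foxp3-DTR/eGFP mice. The remaining groups received the granules with MSC in hosts injected with diphtheria toxin at 50 µg/kg. Without further treatment this was (dep)BCP+MSC. With local injections of 1 µM RvE1 it was (dep)BCP+MSC+RvE1inj. The RNA came from whole constructs, with seeded and host cells together, and the toxin groups were compared with hosts for which no vehicle injection is described.

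Fibrillar collagens are the rod-shaped proteins that give connective tissue its tensile strength. They are made as procollagens, folded into triple helices in the endoplasmic reticulum, trimmed outside the cell by propeptidases and crosslinked by lysyl oxidases. Col1a1 and Col1a2 encode the chains of type I collagen, the main protein of bone, tendon and dermis, and Col3a1 encodes type III collagen, which is abundant in skin, vessels and early wound tissue. These genes are called major chains here. The minor chains are Col5a1, Col5a2 and Col5a3 of type V collagen, which sits inside type I fibrils and sets their diameter, and Col11a1 and Col11a2 of type XI collagen, which does the same in cartilage. Col24a1 and Col27a1 form a separate and more distant class, known from bone and from cartilage, respectively.

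Total counts per construct ranged from 8482701 to 144417743, a 17.0-fold difference, and 7 libraries had under 20000000 counts (BCP replicates 1 and 4, BCP+MSC+RvE1 replicate 2, BCP+MSC+Treg replicate 4, (dep)BCP+MSC replicate 1, and (dep)BCP+MSC+RvE1inj replicates 3 and 4). Levels are given as CPM, counts per 1000000 counts of a library, with library sizes scaled by the TMM method. A floor of 3 counts lay between 0.0208 and 0.354 CPM, and it covers counting error only. All 10 genes were counted in all 24 constructs and passed the filter on low counts. The lowest value was 4 counts, of Col11a1. Fibroblast genes (Pdgfra, Pdgfrb, Thy1, Dcn and Lum) were counted in every construct. Of the genes that define osteoblasts, Sp7 was at 0 in 4 constructs, Ibsp in 6 and Bglap in 7, while the chondrocyte gene Acan was at 0 in 4. Col2a1 was at 0 in 2 constructs, with a median of 0.1145 CPM over all 24. Several libraries stood apart from their group in other tissues' markers, given as mean log2 CPM over a list. BCP+MSC replicate 2 had 4.02 over 15 skeletal muscle genes, against 9.25 to 10.22 in the other BCP+MSC constructs. The construct (dep)BCP+MSC replicate 1 had 3.52 over 13 skin and hair genes, against -1.32 to -0.13 in the others of its group, and BCP replicate 1 had 0.31 against -3.44 to -3.22. BCP replicate 4 had 1.63 over 8 adipocyte genes, against 7.76 to 8.16 in the others of its group, and BCP+MSC+Treg replicate 4 had 7.49 over the muscle genes, against 9.90 to 10.5.

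Foxp3, the gene that marks the cells the toxin targets in this strain, was counted in every construct, at 4 to 158 counts. It was at 1.70, 0.891, 0.976 and 0.378 CPM in (dep)BCP+MSC, at 0.701, 0.754, 0.299 and 1.07 CPM in (dep)BCP+MSC+RvE1inj and at 1.04, 1.19, 0.629 and 0.876 CPM in BCP+MSC. All of these groups overlapped. The log2 fold change against BCP+MSC was 0.04 (standard error 0.51; edgeR, adjusted p = 0.989) in (dep)BCP+MSC and -0.39 (standard error 0.51; edgeR, adjusted p = 0.777) in (dep)BCP+MSC+RvE1inj. A lower Foxp3 level in the constructs labelled (dep) was thus not detected at this depth, and below these names stand for the toxin treatment given in the labels. The paper reports fewer Treg after toxin by flow cytometry of lymphoid organs. That is another measure in other tissue, which the Foxp3 RNA of constructs does not address.

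The 250 bases in front of the RefSeq start site are shown for the 3 genes that passed the adjusted threshold in toxin-treated hosts (Col1a2, Col5a3 and Col27a1) and for the gene that differed least there (Col11a2). The sequences are those of RefSeq on GRCm38.p6, at chr6:4505368-4505617 on the plus strand (Col1a2), chr9:20815068-20815317 on the minus strand (Col5a3), chr4:63215162-63215411 on the plus strand (Col27a1) and chr17:34038888-34039137 on the plus strand (Col11a2). The Col1a2 and Col27a1 windows lie inside the span that the count table gives to those genes. The Col5a3 window borders its span. The Col11a2 window ends at 34039137, some way before the start of its span at 34039437. Capitals mark CCAAT, the letters bound by the factor NF-Y, on either strand (CCAAT or ATTGG).
Col1a2: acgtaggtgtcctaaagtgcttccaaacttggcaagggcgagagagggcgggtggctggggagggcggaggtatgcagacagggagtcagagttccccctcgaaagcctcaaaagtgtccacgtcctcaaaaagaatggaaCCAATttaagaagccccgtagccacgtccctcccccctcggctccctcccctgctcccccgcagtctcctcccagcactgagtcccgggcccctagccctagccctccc
Col5a3: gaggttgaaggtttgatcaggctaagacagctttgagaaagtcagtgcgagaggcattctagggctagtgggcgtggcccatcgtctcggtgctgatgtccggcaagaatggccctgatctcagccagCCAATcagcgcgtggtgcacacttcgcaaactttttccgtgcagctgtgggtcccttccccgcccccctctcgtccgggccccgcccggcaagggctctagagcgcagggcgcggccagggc
Col27a1: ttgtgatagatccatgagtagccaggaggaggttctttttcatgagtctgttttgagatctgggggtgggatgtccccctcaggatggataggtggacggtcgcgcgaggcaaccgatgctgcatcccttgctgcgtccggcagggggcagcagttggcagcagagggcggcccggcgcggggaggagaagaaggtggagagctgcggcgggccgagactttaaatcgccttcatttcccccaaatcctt
Col11a2: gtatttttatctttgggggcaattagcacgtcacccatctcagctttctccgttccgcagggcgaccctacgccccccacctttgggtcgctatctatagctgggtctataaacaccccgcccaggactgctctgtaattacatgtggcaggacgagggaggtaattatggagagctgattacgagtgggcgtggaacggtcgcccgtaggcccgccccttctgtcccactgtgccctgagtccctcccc
CCAAT was found in 3 of the 8 fibrillar collagen genes with an entry (Col1a2, Col5a3 and Col11a1), beginning 109, 122 and 79 bases before the start site, respectively, and in 33.8% of 32851 RefSeq windows of the same length. The letters GGGCGG (or CCGCCC), a GC box, were found in 6 of the 8 and in 32.7% of all windows. TATAAA (or TTTATA) was found in 2 of the 8, Col3a1 and Col11a2, and in 12.4% of all windows. Within a window, matches of different motifs did not overlap in these genes, and a match describes the letters only. Col1a1 and Col5a2 have no entry.

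To compare levels between genes, CPM was divided by the exon length in the count table. That length covers all annotated exons of a gene and can exceed the length of the transcripts present. It is 6563 bases for Col1a1, 12426 for Col1a2, 12744 for Col11a1 and 13022 for Col27a1, so the order of genes depends on it. In BCP, Col3a1 (ENSMUSG00000026043.18, chromosome 1, 45311538 to 45349706) had 1530 ± 279 CPM per kb and Col1a1 (ENSMUSG00000001506.10, chromosome 11, 94936224 to 94953042) had 1448 ± 410 CPM per kb (SD, n = 4). The 2 ranges overlapped. Col1a2 (ENSMUSG00000029661.16, chromosome 6, 4504814 to 4541544) followed at 733 ± 179 CPM per kb, below the lowest Col1a1 value of the group. Next came the type V chains with overlapping ranges, Col5a1 (ENSMUSG00000026837.15, chromosome 2, 27886425 to 28039514) at 154 ± 40.3 CPM per kb, Col5a3 (ENSMUSG00000004098.7, chromosome 9, 20770050 to 20815067) at 128 ± 16.4 CPM per kb and Col5a2 (ENSMUSG00000026042.16, chromosome 1, 45374321 to 45503282) at 110 ± 25.4 CPM per kb. Col27a1 (ENSMUSG00000045672.15, chromosome 4, 63214004 to 63334991) was at 4.55 ± 0.838 CPM per kb and Col24a1 (ENSMUSG00000028197.4, chromosome 3, 145292472 to 145552011) at 3.34 ± 0.479 CPM per kb, again with overlapping ranges. The type XI chains were lowest and overlapped each other, with Col11a2 (ENSMUSG00000024330.16, chromosome 17, 34039437 to 34066685) at 0.864 ± 0.127 CPM per kb and Col11a1 (ENSMUSG00000027966.20, chromosome 3, 114030540 to 114220718) at 0.415 ± 0.307 CPM per kb. Coordinates are those of the count table on GRCm38, and Col5a2 and Col5a3 lie on the minus strand.

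**Figure D1:**
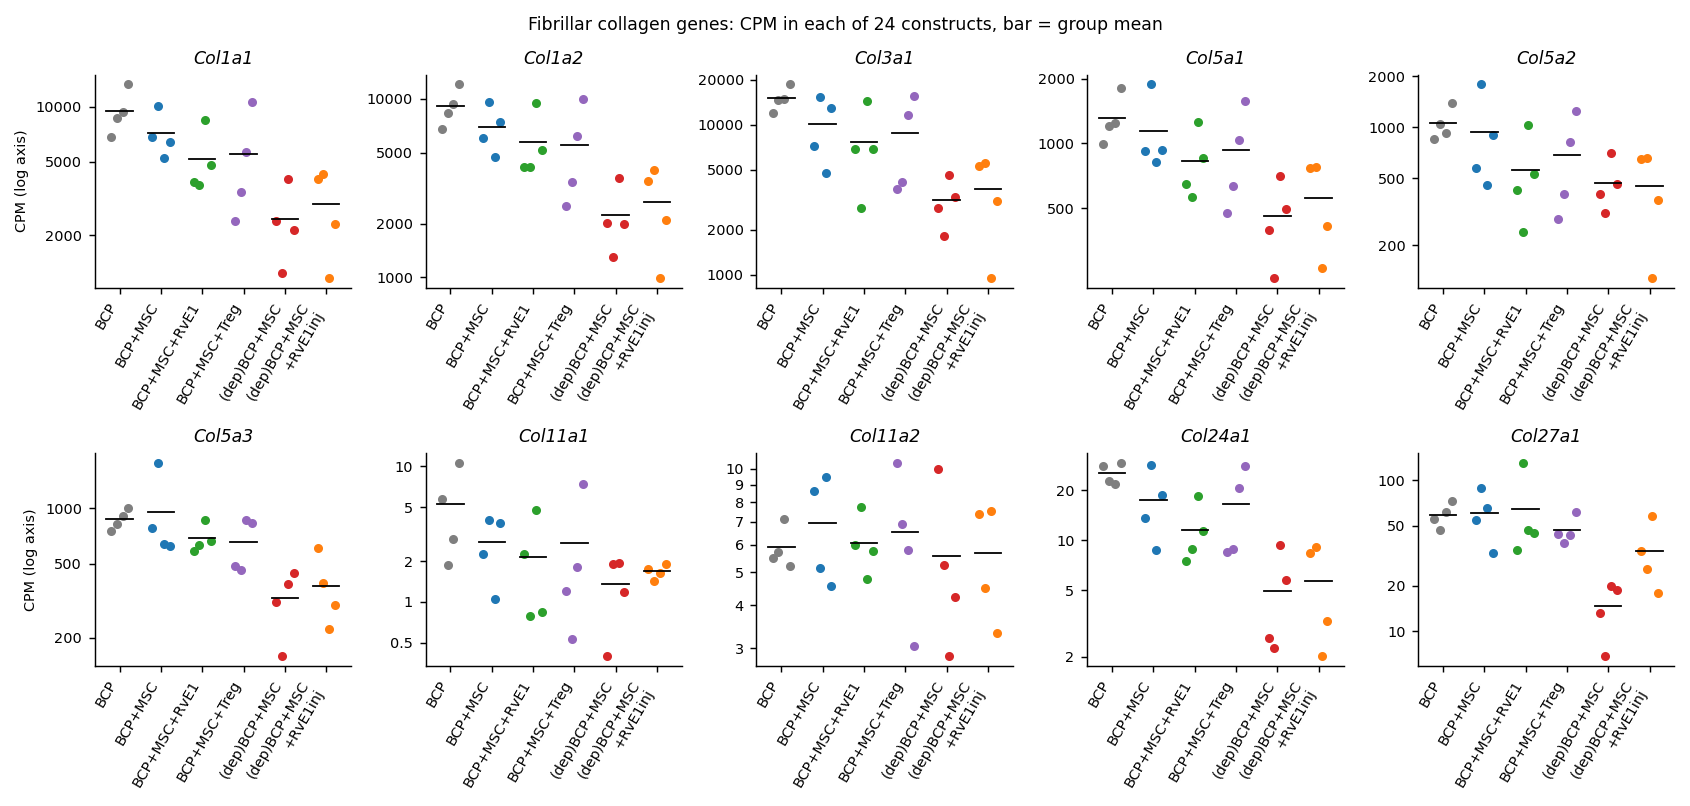
CPM (log axes, 1 scale per gene) of each fibrillar collagen gene in the 24 constructs, grouped on the x axis; points are constructs and bars are group means. In Col27a1 the (dep)BCP+MSC points, 6.82 to 20.0 CPM, lie below all other groups except for 1 (dep)BCP+MSC+RvE1inj construct at 18.0 CPM.

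Across the groups, mean Col1a1 CPM was ordered BCP (9506), BCP+MSC (7148), BCP+MSC+Treg (5511), BCP+MSC+RvE1 (5213), (dep)BCP+MSC+RvE1inj (2946) and (dep)BCP+MSC (2451). Each of these groups overlapped its neighbours in the order. Col1a2, Col3a1, Col5a1 and Col24a1 likewise had their highest mean in BCP and their lowest in (dep)BCP+MSC. Col5a2 was lowest in (dep)BCP+MSC+RvE1inj (451 CPM), next to 470 CPM in (dep)BCP+MSC. Col5a3 was highest in BCP+MSC (954 CPM), a mean that rested on 1766 CPM in replicate 2. Col27a1 had similar means in BCP (59.3 CPM), BCP+MSC (60.3 CPM) and BCP+MSC+RvE1 (64.3 CPM), and its order was set by 131 CPM in BCP+MSC+RvE1 replicate 2. Col11a1 was highest in BCP (5.29 CPM) and varied most, 26.7-fold between its highest and lowest construct, at few counts. Col11a2 varied least, 3.67-fold, with group means between 5.57 and 6.94 CPM. In bulk samples, fewer cells of a type and less RNA per cell cannot be told apart.

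The main difference lay between (dep)BCP+MSC and BCP+MSC, which had the same kind of MSC-seeded construct in hosts with and without the toxin. The paper describes the toxin-treated mice as an experiment of their own. For both toxin groups, the toxin and a difference between experiments therefore cannot be told apart in comparisons with BCP+MSC. Counts were tested with edgeR's quasi-likelihood method, with Benjamini-Hochberg adjustment over the 30564 genes tested. In (dep)BCP+MSC, 3 of the 10 genes fell at an adjusted p-value under 0.05, Col27a1, Col5a3 and Col1a2, and 0 rose. Over all genes, 2.17% were lower at that threshold and 1.75% were higher. At an unadjusted p-value under 0.05 with a log2 fold change below -1, 7 of the 10 were lower, against 6.53% of all genes. The other 4 of these 7 were Col1a1, Col3a1, Col5a1 and Col24a1. All 10 fold changes were below 0, as were 52.1% of those over all genes. The median log2 fold change was -1.55 over the 10 genes and -0.04 over all genes. In 6 genes every (dep)BCP+MSC construct lay below every BCP+MSC construct, which held for 4.93% of all genes.

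Of the major chains, Col1a1 was at 2386, 1243, 4053 and 2123 CPM in the (dep)BCP+MSC constructs and at 6805, 10072, 5277 and 6440 CPM in BCP+MSC. The groups did not overlap. The log2 fold change was -1.54 (standard error 0.45; edgeR, adjusted p = 0.0503; exact permutation test, p = 0.0286, the smallest that 70 arrangements allow). Col1a2, the partner chain in type I collagen, was at 2020, 1296, 3593 and 1983 CPM against 6048, 9554, 4700 and 7444 CPM. Its constructs did not overlap either, and it fell 3.12-fold (log2 fold change -1.64, standard error 0.44; edgeR, adjusted p = 0.0339). With each construct left out in turn, Col1a2 passed the adjusted threshold in 2 of 8 fits, those without BCP+MSC replicate 3 and without the (dep)BCP+MSC column numbered 4, and its adjusted p ranged from 0.0189 to 0.127. Col3a1 was at 2800, 1823, 4660 and 3282 CPM against 7275, 15438, 4744 and 13037 CPM. The highest (dep)BCP+MSC construct was just under the lowest BCP+MSC construct (log2 fold change -1.69, standard error 0.54; edgeR, adjusted p = 0.0780).

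Of the minor chains, Col5a3 was at 311, 159, 389 and 445 CPM in (dep)BCP+MSC and at 786, 1766, 639 and 627 CPM in BCP+MSC. The groups did not overlap, and Col5a3 fell 2.93-fold (log2 fold change -1.55, standard error 0.36; edgeR, adjusted p = 0.0133). It passed the adjusted threshold in 5 of 8 fits with 1 construct left out, with an adjusted p of 0.0824 without BCP+MSC replicate 2, 0.0542 without (dep)BCP+MSC replicate 1 and 0.0651 without (dep)BCP+MSC replicate 2. Col5a1 was at 399, 238, 704 and 498 CPM against 923, 1882, 822 and 934 CPM, without overlap (log2 fold change -1.31, standard error 0.40; edgeR, adjusted p = 0.0667). Col5a2 was at 404, 308, 708 and 459 CPM against 577, 1800, 456 and 894 CPM. Here the groups overlapped, and neither threshold was passed (log2 fold change -0.99, standard error 0.53; edgeR, adjusted p = 0.297). Col11a1 had 0.399 to 1.95 CPM against 1.04 to 4.00 CPM (log2 fold change -0.99, standard error 0.69; edgeR, adjusted p = 0.443). Col11a2 had 2.85 to 9.97 CPM against 4.56 to 9.43 CPM, and its log2 fold change of -0.34 was within its standard error of 0.38 (edgeR, adjusted p = 0.668).

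Col27a1 was at 13.2, 6.82, 20.0 and 18.7 CPM in (dep)BCP+MSC and at 54.2, 89.0, 65.0 and 32.8 CPM in BCP+MSC. No (dep)BCP+MSC construct reached the lowest BCP+MSC construct, and Col27a1 fell 4.10-fold (log2 fold change -2.04, standard error 0.42; edgeR, adjusted p = 0.00671; exact permutation test, p = 0.0286). It passed the adjusted threshold in 8 of 8 fits with 1 construct left out, with log2 fold changes of -2.24 to -1.77 and adjusted p-values of 0.00483 to 0.0332. Col24a1 was at 2.59, 2.26, 9.36 and 5.75 CPM against 13.6, 28.4, 8.76 and 18.7 CPM. The (dep)BCP+MSC column numbered 4 overlapped BCP+MSC replicate 3 (log2 fold change -1.78, standard error 0.51; edgeR, adjusted p = 0.0507; exact permutation test, p = 0.0571).

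The count of 3 genes depended on single libraries. It was 1 without BCP+MSC replicate 2, 1 without (dep)BCP+MSC replicate 1, 1 without (dep)BCP+MSC replicate 2 and 6 without the (dep)BCP+MSC column numbered 4. Without the 7 libraries of under 20000000 counts, an alternative chosen after the data were seen, it was 1, Col27a1. BCP+MSC replicate 2, the construct low in muscle genes, was the highest of its group in Col1a1, Col1a2, Col3a1, Col5a1, Col5a2, Col5a3, Col11a1, Col24a1 and Col27a1, and (dep)BCP+MSC replicate 1 was the construct high in skin genes. With the muscle score as a covariate the log2 fold change was -1.77 for Col27a1 (edgeR, adjusted p = 0.0162) and -1.15 for Col5a3 (edgeR, adjusted p = 0.0383). Col1a2 was at -1.43 (edgeR, adjusted p = 0.0546). In that fit Col5a1 went from -1.31 to -0.97 and Col5a2 from -0.99 to -0.54. Of the 10 genes only Col11a2 moved away from 0, from -0.34 to -0.50. Fitted on the compared groups only, Col5a3 had a log2 fold change of -1.55 (edgeR, adjusted p = 0.114). Col1a2 had -1.64 in that fit (edgeR, adjusted p = 0.0830). Xist was above the Y-linked genes in 3 of 4 BCP+MSC constructs, 2 of 4 (dep)BCP+MSC constructs and 0 of 4 (dep)BCP+MSC+RvE1inj constructs. The same held in 1 of 4 BCP, 0 of 4 BCP+MSC+RvE1 and 1 of 4 BCP+MSC+Treg constructs. With a covariate for these sex-linked genes 7 of the 10 collagen genes passed the adjusted threshold in (dep)BCP+MSC against BCP+MSC.

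**Figure D2:**
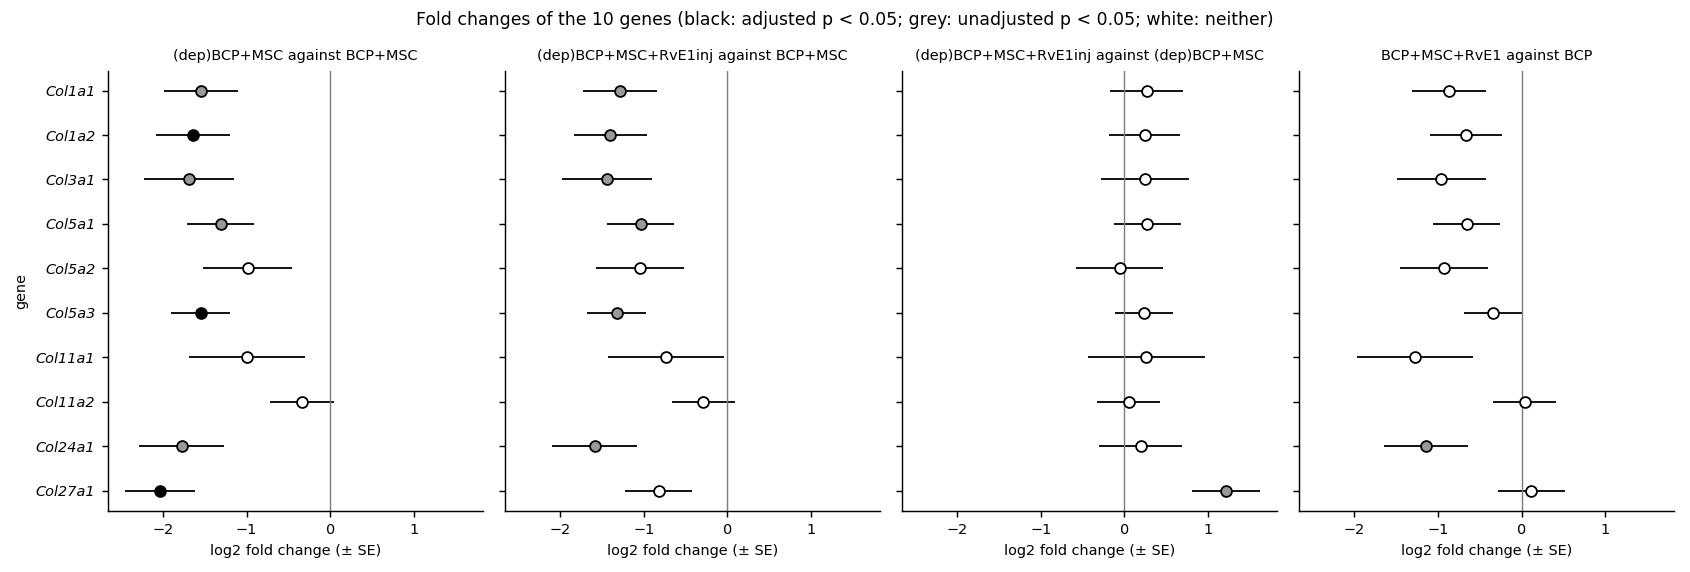
Log2 fold change (x axis, point, with its standard error as the bar) of each gene (y axis) in 4 comparisons; black points passed an adjusted p of 0.05 in edgeR, grey points an unadjusted p of 0.05 and white points neither. All 10 points lie below 0 against BCP+MSC in both toxin groups, and Col27a1 stands at 1.21 between the toxin groups.

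The comparison of (dep)BCP+MSC+RvE1inj with BCP+MSC used the same BCP+MSC constructs. All 10 genes had fold changes below 0 (52.2% of all genes), with a median log2 fold change of -1.16, but 0 passed the adjusted threshold, which 0.461% of all genes passed as lower and 0.258% as higher (edgeR; lowest adjusted p = 0.0792, Col5a3). At the unadjusted threshold 6 genes were lower, against 4.38% of all genes, and DESeq2 called 3 at its adjusted threshold. These 6 were Col1a1, Col1a2, Col3a1, Col5a1, Col5a3 and Col24a1. The count of 6 went to 3 without BCP+MSC replicate 2 and to 0 without the 7 shallow libraries, among them replicates 3 and 4 of this group. In 4 genes, Col1a1, Col1a2, Col5a1 and Col5a3, the groups did not overlap (4.44% of all genes). Col1a1 was at 4030, 4278, 1173 and 2302 CPM with the injections, for a log2 fold change of -1.28 (standard error 0.44; edgeR, adjusted p = 0.195). Col27a1, at 34.2, 26.0, 58.2 and 18.0 CPM, overlapped BCP+MSC (log2 fold change -0.82, standard error 0.40; edgeR, adjusted p = 0.373).

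Between the toxin groups, (dep)BCP+MSC+RvE1inj against (dep)BCP+MSC addresses the local RvE1 injections. No vehicle injection is described for (dep)BCP+MSC, so RvE1 and the act of injecting cannot be told apart. Here 0 of the 10 genes, and 0 of all genes, passed the adjusted threshold in edgeR (DESeq2 called 8 of all genes and 0 of the 10). At the unadjusted threshold 1 gene, Col27a1, was higher, against 2.62% of all genes. Its log2 fold change was 1.21 (standard error 0.41; edgeR, unadjusted p = 0.00703, adjusted p = 0.668). The constructs overlapped at 18.0 CPM with the injections and 18.7 and 20.0 CPM without (exact permutation test, p = 0.0857). Without (dep)BCP+MSC+RvE1inj replicate 3, the highest at 58.2 CPM, the log2 fold change was 0.83 and the unadjusted count was 0, as it was without (dep)BCP+MSC replicate 2. In the same comparison 12 of 13 skin and hair markers had estimates below 0 (median log2 fold change -2.10, 5 lower and 1 higher at the unadjusted threshold, against 2.5% and 2.62% of all genes). Of 15 muscle markers 13 had estimates below 0 (median -0.37, 1 lower). Estimates were above 0 for 11 of 12 fibroblast markers (median 0.33, 1 higher at that threshold), for 9 of 10 T cell markers (median 0.78, 1 higher) and for 6 of 9 chondrocyte markers (median 0.86, 1 higher). For osteoblast markers 6 of 11 estimates were below 0 (median -0.08, 1 higher). Apart from the alternative fit with the muscle score as a covariate, the part of these markers in the Col27a1 difference was not tested. Col5a2 was the 1 gene below 0 (48.7% of all genes were), and the 9 genes besides Col27a1 had log2 fold changes of -0.06 to 0.27, with standard errors of 0.35 to 0.70. The contrast of this injection effect with the priming effect of RvE1 in toxin-free hosts gave 0 genes past the unadjusted threshold (2.02% of all genes were higher), 0 below 0 (45.8% of all genes), and for Col27a1 a log2 difference of 1.12 (standard error 0.57; edgeR, unadjusted p = 0.0620, adjusted p = 1.00).

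In toxin-free hosts the groups were compared for what MSC, Treg coculture and RvE1 priming added. Against BCP, estimates were lower for 7 genes with BCP+MSC, for 8 with BCP+MSC+RvE1 and for 9 with BCP+MSC+Treg, where 43.8%, 47.2% and 46.9% of all genes were below 0. Of the 10 genes 0 passed the adjusted threshold, as did 0 of all genes (edgeR; DESeq2 called 6, 101 and 3 of all genes, and 0 of the 10). At the unadjusted threshold the counts of lower genes were 0, 1 and 0, against 1.83%, 3.18% and 2.09% of all genes. The 1 gene was Col24a1 in BCP+MSC+RvE1. It was at 7.50, 8.91, 18.3 and 11.4 CPM there and at 27.8, 22.8, 21.9 and 29.3 CPM in BCP. All BCP+MSC+RvE1 constructs lay below all BCP constructs, as for 5.8% of all genes (log2 fold change -1.14, standard error 0.50; edgeR, unadjusted p = 0.0323, adjusted p = 0.303; exact permutation test, p = 0.0286). In this comparison all 15 muscle markers had estimates above 0 (median log2 fold change 1.45, 3 higher at the unadjusted threshold, which 5.36% of all genes were), as did all 8 adipocyte markers (median 1.58, 2 higher). Of 12 fibroblast markers 2 were higher at that threshold (S100a4 and Twist2), with 6 of the 12 estimates below 0 (median -0.03). Of 11 osteoblast markers 2 were higher (Ibsp and Bglap), with 8 estimates above 0 (median 0.18). For 7 myofibroblast markers 1 was lower (Adam12), with 6 of the 7 estimates below 0. Among 13 skin and hair markers 9 estimates were below 0 (median -1.05), and 0 passed the unadjusted threshold. In these lists 0 genes passed the adjusted threshold. With the muscle score as a covariate the count of 1 was 0, which alone does not show whether the difference became smaller. The part of adipocyte content was not tested. The count of 1 became 6 without BCP+MSC+RvE1 replicate 3, the highest of its group in Col24a1, 2 without BCP replicate 2, and 0 without BCP replicate 1, BCP replicate 4 or BCP+MSC+RvE1 replicate 1, 2 or 4. Similarly, the count of 0 in BCP+MSC+Treg became 4 without its replicate 4, which had 10559 CPM of Col1a1 against 2404 to 5643 CPM in the other constructs. In BCP+MSC+RvE1, Col1a1 had a log2 fold change against BCP of -0.87 (standard error 0.44; edgeR, adjusted p = 0.335), and Col3a1 of -0.96 (standard error 0.53; edgeR, adjusted p = 0.363). Against BCP+MSC, estimates were lower for 9 genes with BCP+MSC+RvE1 and for 10 with BCP+MSC+Treg (52.5% and 53.2% of all genes). These groups also differed from BCP+MSC in the Xist counts given above. With single constructs left out, the estimate turned above 0 for 6 of the 10 genes with BCP+MSC+Treg (Col3a1, Col5a1, Col5a2, Col11a1, Col11a2 and Col24a1), and the sign turned for Col5a3 and Col27a1 with BCP+MSC+RvE1. At the unadjusted threshold 0 were lower, against 1.39% and 1.33% of all genes. Without BCP+MSC+RvE1 replicate 3 the first of these counts was 1. With Treg coculture set against RvE1 priming, 0 of the 10 genes were higher at the unadjusted threshold (1.18% of all genes), with log2 fold changes of -0.45 to 0.51.

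The chain classes were compared by their summed CPM per kb, as a description without a test. The major chains made up 81.1% to 90.6% of the fibrillar sum in the 24 constructs, the minor chains 9.23% to 17.9%, and Col24a1 with Col27a1 0.142% to 1.08%. The major chains had a mean log2 sum 1.65 lower in (dep)BCP+MSC than in BCP+MSC, the minor chains 1.25 lower and Col24a1 with Col27a1 2.04 lower. For (dep)BCP+MSC+RvE1inj against BCP+MSC these log2 differences were -1.50, -1.15 and -1.06. The minor chains' share was 13.4% to 17.4% in (dep)BCP+MSC and 12.4% to 17.9% in (dep)BCP+MSC+RvE1inj, against 9.23% to 14.7% in BCP+MSC and 9.30% to 10.1% in BCP. The minor share was thus higher in all 8 toxin constructs than in all 4 BCP constructs, and overlapped with BCP+MSC, with BCP+MSC+RvE1 (9.83% to 13.4%) and with BCP+MSC+Treg (9.84% to 14.4%). As a share of all normalized counts, the 10 genes held 2.83% to 4.83% in BCP, 1.67% to 4.06% in BCP+MSC, 1.23% to 3.55% with RvE1 priming, 0.994% to 3.99% with Treg coculture, 0.508% to 1.41% in (dep)BCP+MSC and 0.381% to 1.57% in (dep)BCP+MSC+RvE1inj. The toxin groups did not overlap BCP or BCP+MSC in this share, but overlapped the RvE1-primed and Treg groups.

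**Figure D3:**
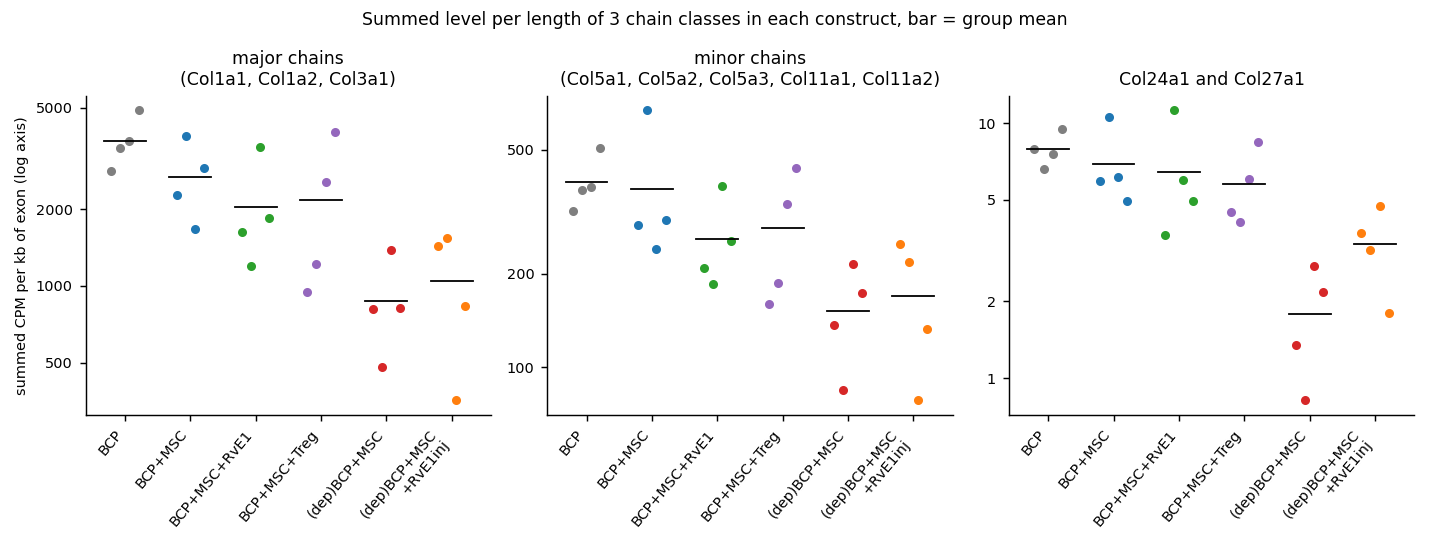
Summed CPM per kb (log axes) of the major chains, the minor chains, and Col24a1 with Col27a1 in each construct by group; bars are group means. The major chains run from 356 to 1537 in the toxin groups and from 947 to 4885 in the other groups, so the ranges overlap.

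Ratios between chains were taken from the levels per length. Col1a1 to Col1a2, the chains of type I collagen, had a per-length ratio of 1.64 to 2.24 over the 24 constructs while Col1a1 itself varied 11.3-fold. Mean CPM over all constructs was 5462 for Col1a1 and 5358 for Col1a2. The size of this ratio thus rests on their exon lengths, and only its differences between constructs do not. In BCP+MSC+RvE1 the ratio was 1.68 to 1.77, below the 1.90 to 2.08 of BCP. Col5a1 to Col1a1 was 0.103 to 0.113 in BCP, 0.105 to 0.145 in BCP+MSC, 0.129 to 0.181 in (dep)BCP+MSC, 0.140 to 0.175 with the RvE1 injections, 0.116 to 0.138 with RvE1 priming and 0.115 to 0.153 with Treg coculture, so that all constructs of these 4 groups lay above all BCP constructs. Col3a1 to Col1a1 was 0.943 to 1.18 in BCP, and its lowest values were 0.498 in BCP+MSC+RvE1 replicate 2 and 0.544 in (dep)BCP+MSC+RvE1inj replicate 3. Col5a2 to Col5a1 was 0.815 to 1.15 in (dep)BCP+MSC, above the 0.428 to 0.790 of (dep)BCP+MSC+RvE1inj, and overlapped the 0.491 to 0.848 of BCP+MSC. Its lowest values, 0.377 and 0.428, again came from BCP+MSC+RvE1 replicate 2 and (dep)BCP+MSC+RvE1inj replicate 3. These 2 libraries had the highest Col27a1 to Col24a1 ratios, 8.62 and 16.9, against 1.03 to 4.35 in the other 22. Both are among the shallow libraries, with 148 and 27 counts of Col24a1.

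**Figure D4:**
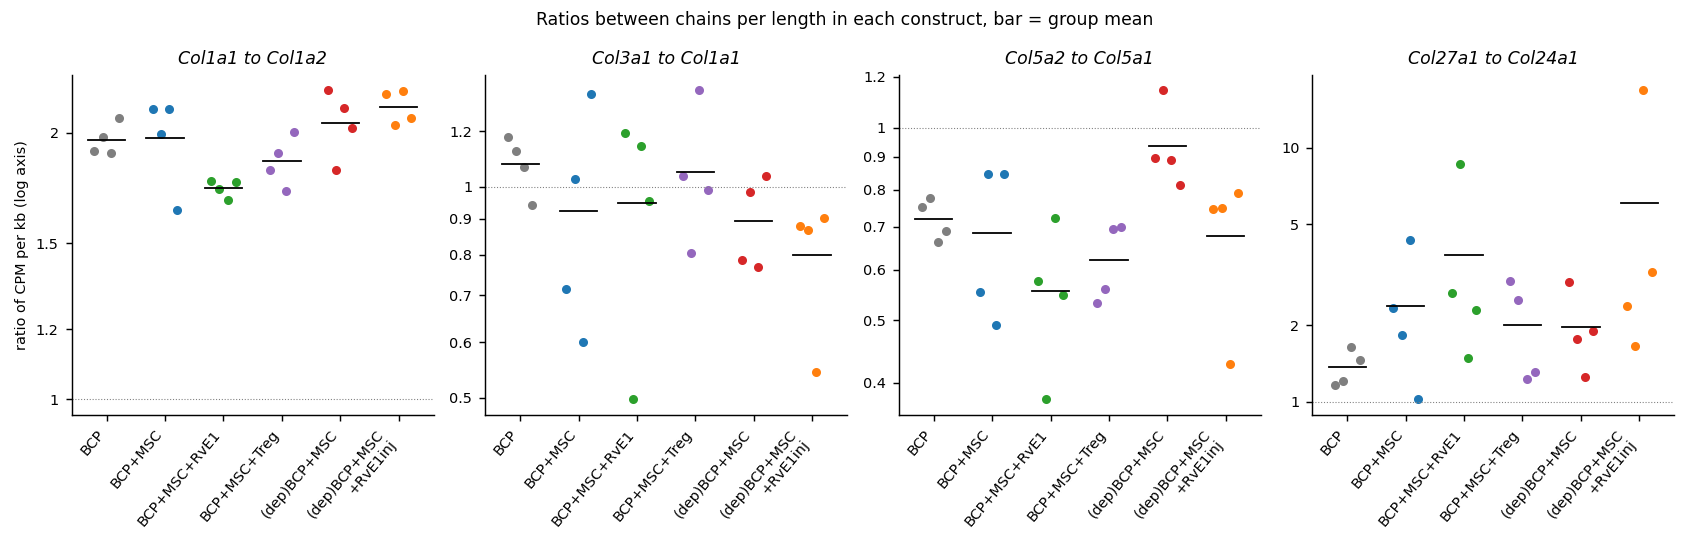
Per-length ratio (log axes) of 4 pairs of chains in each construct by group; bars are group means and dotted lines mark a ratio of 1. Col1a1 to Col1a2 stays between 1.64 and 2.24, while Col27a1 to Col24a1 reaches 16.9 in 1 (dep)BCP+MSC+RvE1inj construct.

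Over the 24 constructs, which share their group and library with every gene measured in them, Pearson's r of log2 CPM between Col1a1 and Col1a2 was 0.99. Col1a1 correlated at 0.95 with Col3a1, 0.98 with Col5a1, 0.94 with Col24a1, 0.90 with Col5a3 and 0.89 with Col5a2. With the group means removed these values were 0.99, 0.90, 0.97, 0.88, 0.79 and 0.92, respectively. Col27a1 correlated less with Col1a1 (0.61, and 0.15 with group means removed), and most with Col5a3 (0.74, and 0.40 with group means removed). Col11a2 had r of -0.48 to 0.25 with the other 9 genes. With group means removed it was negative with 8 of them, from -0.68 (Col11a1) to -0.31 (Col5a3), and 0.12 with Col27a1. Col11a1, at low counts, had 0.62 with Col1a1.

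**Figure D5:**
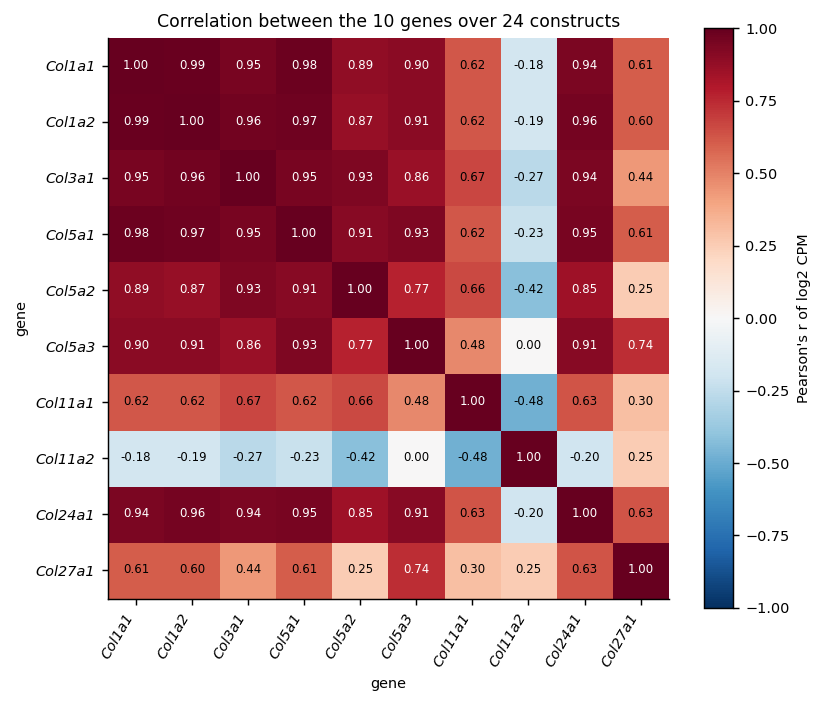
Pearson's r of log2 CPM over the 24 constructs between each pair of the 10 genes (both axes), from -1 (blue) to 1 (red). The major chains, Col5a1 and Col24a1 form a block at 0.94 to 0.99, and the Col11a2 row lies between -0.48 and 0.25.

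Among 14764 genes with a mean of at least 1 CPM and outside the 10, those most like Col1a1 over the 24 constructs were Slc2a10 (r = 0.98), Naalad2, Col6a3, Sparc and Ptgfrn (0.96 each). Sparc encodes a collagen-binding matrix protein and Col6a3 a chain of beaded filament collagen. Col24a1 was most like Ptgfrn (0.98), Cdh11, Gpr153, Invs and Col6a3 (0.96 to 0.97), of which Cdh11 encodes a cadherin of osteoblasts and fibroblasts. Col5a3 was most like Rian, Col6a3, Dpysl3, Col16a1 and Cthrc1 (0.94 to 0.95). Col27a1 had other neighbours, Slc4a2 (0.92), Hspg2 (0.91), Pou2f2, Ikbip and Cx3cr1 (0.87 each). Hspg2 encodes perlecan, a basement membrane proteoglycan, and Cx3cr1 a chemokine receptor of macrophages. Col11a1 was most like Trim37 (0.88) and Col11a2 like Ung (0.79).

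Other genes of the collagen system were taken from lists. In (dep)BCP+MSC against BCP+MSC, 2.17% of all genes were lower at the adjusted threshold and 1.75% were higher, with a median log2 fold change of -0.04. Of 31 genes of collagen synthesis and processing, 9 fell at that threshold and 0 rose, with a median log2 fold change of -0.87. Among them were Serpinh1, the collagen chaperone of the endoplasmic reticulum (log2 fold change -2.26, standard error 0.38; edgeR, adjusted p = 0.00149), and Loxl1, a lysyl oxidase (-1.01, standard error 0.18; edgeR, adjusted p = 0.00247). Of 13 fibril-associated proteoglycans and glycoproteins, 8 fell and 0 rose, with a median of -1.41. Fmod, which encodes fibromodulin, was at 3.61 ± 1.69 CPM against 26.7 ± 3.96 CPM (SD, n = 4; edgeR, adjusted p = 3.47e-05). Of 16 beaded filament and FACIT collagens, which lie between or on fibrils, 6 fell and 0 rose, among them Col14a1 (log2 fold change -2.39, standard error 0.39). Of 12 basement membrane and network collagens, 4 fell and 0 rose, among them Col15a1 (-3.09, standard error 0.40). In (dep)BCP+MSC+RvE1inj against the same BCP+MSC constructs, 1, 1, 3 and 3 genes of these lists fell, in the same order, and 0 rose, where 0.461% of all genes were lower and 0.258% higher. Between the toxin groups 0 genes of the 4 lists passed the adjusted threshold.

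Markers of several cell types moved with the comparison of (dep)BCP+MSC and BCP+MSC. At the adjusted threshold, which 2.17% of all genes passed as lower and 1.75% as higher, 5 of 12 fibroblast markers fell and 0 rose, among them Fap, Thy1 and Pi16, and their summed level was 488 to 751 CPM against 1014 to 1289 CPM, with Pdgfra, Pdgfrb, Thy1, Dcn and Lum above 0 in every construct. Of 7 myofibroblast markers, 2 fell (Cthrc1 and Adam12), and the sums of 192 to 400 and 295 to 783 CPM overlapped. Of 11 osteoblast markers, 2 fell (Ibsp and Dmp1), with sums of 1145 to 6567 and 3633 to 7194 CPM. Of 13 skin and hair markers, 3 rose (Lor, Krt1 and Krt10), with sums of 23.3 to 480 and 8.45 to 57.6 CPM, and Krt5 was at 0 in 9 of the 24 constructs. In the lists for chondrocytes, muscle, adipocytes, macrophages, T cells and endothelium 0 genes passed the adjusted threshold in either direction. Of the 10 T cell markers, all 10 had estimates above 0, with a median log2 fold change of 0.94, and 3 were higher at the unadjusted threshold, as were 6.65% of all genes (sums of 34.5 to 140 CPM against 24.3 to 52.6 CPM). At that threshold 2 muscle markers were higher and 1 lower, 2 chondrocyte markers were lower and 1 macrophage marker was higher. The muscle sums were 21692 to 34154 CPM against 348 to 26669 CPM. With the RvE1 injections, 0.461% of all genes were lower against BCP+MSC at the adjusted threshold and 0.258% were higher. There 1 of 12 fibroblast markers fell (sums of 737 to 933 CPM), as did 1 of 11 osteoblast markers. T cell markers rose in 3 of 10, with sums of 113 to 150 CPM and a median log2 fold change of 1.62 over the list. Apart from the fit with the muscle score as a covariate, the part of these markers in the lower collagen levels was not tested.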

How the data were processed

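Total RNA of 24 constructs was made into stranded mRNA libraries and sequenced in paired ends. The authors deposited 1 table of raw counts of read pairs per gene, made, per the file headers, with featureCounts 1.5.2 over the exons of GENCODE M13 genes (GRCm38); HISAT2 2.0.5, Picard and, in the submitters' processing notes, STAR are also named. No strand option was given, so reads of overlapping genes on either strand cannot be told apart. Annotated genes overlap exons of 2 members (Col3a1 and Col5a1) and of no other. The table also gives exon length. Counting was run on further libraries, not analysed here. In (dep)BCP+MSC the columns are numbered 1, 2, 4 and 5, and those numbered 4 and 5 were assigned by group only.

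Of 51138 genes, 50376 matched a symbol, and the 30564 with at least 10 counts in all were tested with edgeR 4.0.16 (R 4.3.3; TMM, quasi-likelihood, 1 fit to the 6 groups, Benjamini-Hochberg over all genes). A gene was called at an adjusted p under 0.05, and also described at an unadjusted p under 0.05 with a log2 fold change beyond 1. All 10 members are named, and of the other lists up to 3 genes with the smallest p; likeness was taken as the 5 other genes of highest Pearson's r. CPM was computed with TMM factors, log2 CPM with a prior count of 2, and exact permutation tests were two-sided over 70 arrangements. Animals are the replicates. Scripts were tested on simulated data. Alternatives were another normalization (RLE), no filter, edgeR's filterByExpr, a replicate block, the compared groups alone, covariates for sex-linked or muscle genes, DESeq2 1.42.0, each replicate left out and, chosen after the data were seen, the 7 libraries under 20000000 counts left out. Promoters are RefSeq windows, matched for 8 of the 10 members by symbol. The members and lists were chosen with earlier results of these data known.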

Additional observations from a re-analysis of the deposited data

Results flagged for a closer look

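Of 60 sets of 4 constructs (10 genes in 6 groups), 3 held a construct far from the rest of its group by Dixon's ratio at its 95% critical value. About 5% of such sets are marked by chance. Col5a1 was at 1882 CPM in BCP+MSC replicate 2 and at 822 to 934 CPM in the other constructs of that group (ratio 0.895). Col5a3 was at 1766 CPM in the same construct and at 627 to 786 CPM in the others (ratio 0.860). This is the construct low in muscle genes, with a mean log2 CPM of 4.02 over 15 genes. Col27a1 was at 131.2 CPM in BCP+MSC+RvE1 replicate 2, against 34.5 to 46.7 CPM in the others (ratio 0.874), in a library of under 20000000 counts. The part of muscle content and depth in these values was not tested.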

How the results depend on the processing

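The lower level of Col27a1 in (dep)BCP+MSC than in BCP+MSC passed the adjusted threshold under every alternative run, with adjusted p-values of 0.000301 to 0.0412. The count of 3 members was 5 with filterByExpr, 1 with the compared groups only, 7 with the sex-linked covariate, 7 with DESeq2 and 1 without the shallow libraries (1 to 6 with 1 replicate left out). Each construct came from a different animal, and the labels do not say whether equal numbers share a block. Deviations from group means in same-numbered constructs correlated at -0.445 to 0.341. In BCP+MSC+Treg, 3 of 4 pairs were over 0.1 against BCP and 3 of 4 against BCP+MSC+RvE1. These correlations cannot decide whether a block exists. The replicate block left out the (dep)BCP+MSC columns numbered 4 and 5 and left 3 members called, but without Col1a2 (log2 fold change -1.89, adjusted p = 0.0595) and with Col24a1 (log2 fold change -2.77, adjusted p = 0.0211). The cause of these changes was not tested.

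Over all genes, the 1198 calls in this comparison were 2443 with the replicate block, 157 with the compared groups only, 2859 with DESeq2 and 630 without the shallow libraries (467 to 1672 with 1 replicate left out). The 220 calls of (dep)BCP+MSC+RvE1inj against BCP+MSC were 40 with the compared groups only, 357 with the sex-linked covariate, 1112 with DESeq2 and 13 without the shallow libraries (45 to 213 with 1 replicate left out). Between the toxin groups the 0 calls were 344 with the replicate block and 8 with DESeq2, and in the contrast with priming 30 and 2. The 0 calls in toxin-free hosts became, with DESeq2, 6 (BCP+MSC), 101 (RvE1-primed) and 3 (Treg cocultured) against BCP, 3 for BCP+MSC+RvE1 against BCP+MSC and 2 for BCP+MSC+Treg against BCP+MSC+RvE1.

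Members lower at the unadjusted threshold in BCP+MSC+RvE1 against BCP numbered 1. They were 2 with the sex-linked covariate, 0 with the muscle covariate, 2 with DESeq2 and 0 without the shallow libraries (0 to 6 with 1 replicate left out). Without the shallow libraries they were 3 in BCP+MSC+Treg against BCP (0 to 4 with 1 replicate left out) and 1 in BCP+MSC+Treg against BCP+MSC, and BCP+MSC+RvE1 against BCP+MSC had 0 to 1 with 1 replicate left out. In (dep)BCP+MSC+RvE1inj against BCP+MSC the 6 became 0 without the shallow libraries (3 to 7 with 1 replicate left out), and adjusted calls were 3 with DESeq2 (0 to 1 with 1 replicate left out). Members higher between the toxin groups were 0 to 1 with 1 replicate left out. In the contrast with priming they were 2 with the replicate block and 1 without the shallow libraries (0 to 1 with 1 replicate left out).

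In the toxin comparisons and in BCP+MSC+RvE1 against BCP, signs turned in the following fits, all of members not past the unadjusted threshold there. With the replicate block, Col11a2 had a log2 fold change of 0.013 in (dep)BCP+MSC against BCP+MSC and of -0.28 between the toxin groups, and Col5a2 of 0.26 there. With the sex-linked covariate, Col11a2 had 0.31 in (dep)BCP+MSC+RvE1inj against BCP+MSC, and between the toxin groups Col1a1 had -0.020, Col1a2 -0.065, Col3a1 -0.10, Col11a1 -0.030 and Col24a1 -0.0093. Without the shallow libraries, Col5a2 had 0.43 and Col11a1 -0.059 between the toxin groups, and in BCP+MSC+RvE1 against BCP Col11a1 had 0.11, Col11a2 -0.22 and Col27a1 -0.37. With the muscle covariate Col11a2 had -0.15 there. With 1 replicate left out, the toxin groups differed by -0.029 to 0.58 in Col1a2, -0.0088 to 0.57 in Col3a1, -0.29 to 0.25 in Col5a2, -0.079 to 0.43 in Col5a3, -0.18 to 0.47 in Col11a2 and -0.12 to 0.70 in Col24a1, and in the log2 sums by -0.11 to 0.59 (major chains) and -0.15 to 0.43 (minor chains). BCP+MSC+RvE1 and BCP differed by -0.10 to 0.15 in Col11a2 and -0.50 to 0.32 in Col27a1. In the other comparisons of toxin-free hosts, leaving out 1 replicate turned the sign of 3 members for BCP+MSC against BCP (Col5a2 up to 0.044, Col5a3 down to -0.36, Col27a1 down to -0.24), of 1 for BCP+MSC+Treg against BCP (Col11a2, -0.16), of 2 for BCP+MSC+RvE1 against BCP+MSC (Col5a3 0.012, Col27a1 -0.52), of 6 for BCP+MSC+Treg against BCP+MSC (up to 0.069 to 0.29) and of 9 for Treg coculture against RvE1 priming. Depth limits Col11a1 most, which had 4 counts in 1 library.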
